A study of Homo sapiens with 2 samples.

Results

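The genes described here are 5 subunits of the transcription factor NF-kB (NFKB1, NFKB2, RELA, RELB and REL), the inhibitors NFKBIA and NFKBIE, the feedback regulators TNFAIP3 and BIRC3, and the kinase subunit IKBKB. They were chosen by name, as every probe whose annotation gives 1 of these symbols and no other gene. All 10 genes were on the array, with 12 probes among the 25650 probes that name 1 gene, out of 19412 genes in all.

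The samples were 2 derivatives of A375SM, a human melanoma line selected for high metastatic capacity. One received, by lentivirus, a short hairpin RNA (shRNA) directed at NFAT1, the transcription factor that NFATC2 encodes, and is labelled NFAT1-shRNA. The other carried a non-targeting shRNA and is labelled NT-shRNA. Both carried GFP, the brightest 50% of GFP-expressing cells were sorted from each, and the comparison asks which transcripts differ between them. Per the design text each line had 3 biological replicates. The deposited table gives 1 combined normalized intensity per probe and line with an error of unstated kind (written here after ±), so the spread between replicates could not be computed, and precision is limited by how many arrays there were.

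NF-kB is a family of dimeric transcription factors. RELA, RELB and REL carry activation domains, whereas NFKB1 and NFKB2 encode the precursors p105 and p100, which are processed to the DNA-binding subunits p50 and p52. In resting cells IkB proteins such as those of NFKBIA and NFKBIE hold the dimers in the cytoplasm. The IkB kinase complex, which contains the IKBKB product, marks IkB for destruction, and NF-kB then enters the nucleus and binds kB sites in DNA. Among its known targets are genes that shut the pathway down or reshape it, NFKBIA, TNFAIP3, BIRC3, NFKB1 and NFKB2 among them. In melanoma NF-kB activity is known for driving cytokine genes such as CXCL8. The array measured transcripts only, and the activity of NF-kB is regulated to a large part at the protein level.

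NFATC2, the gene that the shRNA targets, was detected on 1 of its 2 probes, and that probe did not read lower in cells labelled NFAT1-shRNA. It gave 279.2 ± 15.7 in them and 199.4 ± 15.2 in the line labelled NT-shRNA, and the log2 ratio of the authors' deposited table, which is centred, was 0.12 (adjusted p 0.819). The dimmer probe, detected in neither line, gave 41.6 ± 9.55 in NFAT1-shRNA cells and 57.8 ± 10.6 in NT-shRNA cells, with overlapping ranges and -0.23 as the log2 ratio of the authors' deposited table. NFATC2 thus gave no check of the labels, and directions are given for the lines as they are labelled. Over genes with a ratio, intensities in NFAT1-shRNA cells were 1.23-fold higher at the median (0.30 on the log2 scale). The authors' log2 ratio, NFAT1-shRNA over NT-shRNA, has this shift removed, with a median of -0.02. Of 8 melanocyte lineage markers, 7 were detected in both lines and TYRP1 in NFAT1-shRNA cells only. Of the 7, TYR (288.6 in NFAT1-shRNA cells, 74.6 in NT-shRNA cells) and DCT (799.8 in NFAT1-shRNA cells, 312.9 in NT-shRNA cells) rose at the adjusted threshold of 0.05, and their part in the other differences was not tested. Of 7 leukocyte markers CD68 was detected, and the defining leukocyte gene PTPRC read 4.78 in NFAT1-shRNA cells and -1.20 in NT-shRNA cells. Of the other markers, LUM (fibroblasts) and KRT10 and KRT14 (keratinocytes) were detected in both lines, COL1A2 in NT-shRNA cells only, and 0 of 4 endothelial markers in either. In total RNA of a cell population, fewer cells that express a gene and less RNA per cell cannot be told apart.

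Between the lines no NF-kB member changed past the threshold. RELA, NFKB1, NFKBIA, TNFAIP3 and IKBKB were detected in both lines, at a detection p-value under 0.01. NFKB2, RELB, REL, NFKBIE and BIRC3 were detected in neither. Of the 7 members with a ratio in the authors' deposited table, 0 passed a Benjamini-Hochberg adjusted p of 0.05 computed over all 9516 genes with a ratio, where 7.55% of all these genes did. At an unadjusted p under 0.05 there was 1 member, TNFAIP3, with a background of 19.2% of genes in either direction and 10.1% in its direction (lower in NFAT1-shRNA cells). Negative ratios were held by 5 of the 7 members and 52% of all genes with a ratio. Detection in both lines was seen for 35.3% of all genes on the array and for 5 of the 10 members.

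**Figure D1:**
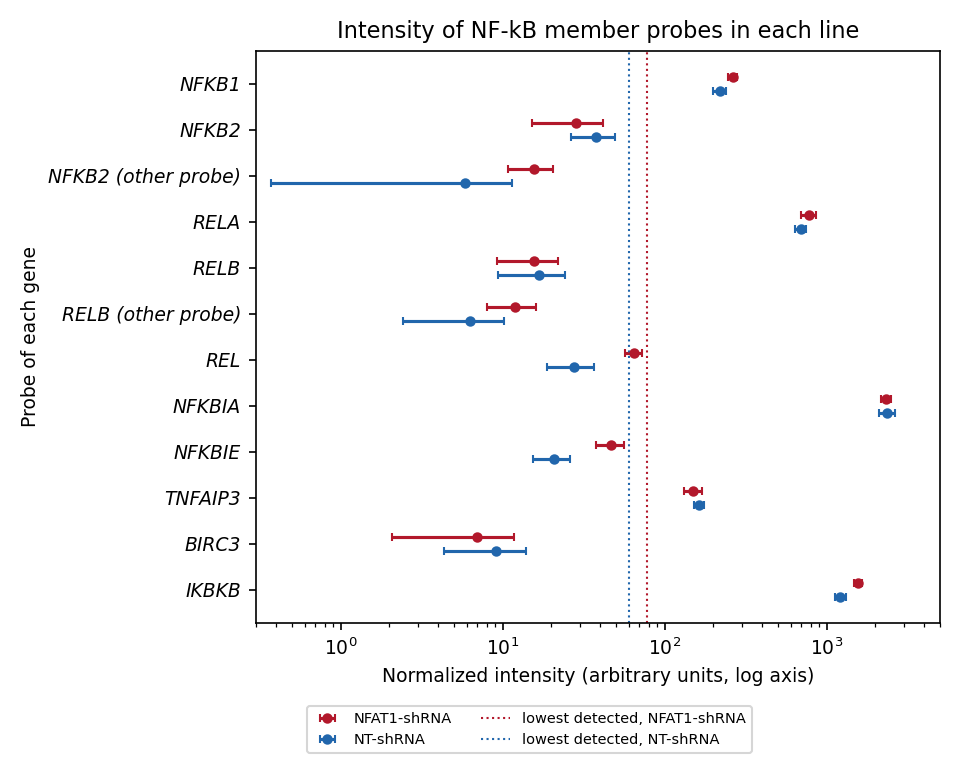
Normalized intensity (arbitrary units, log axis) of the 12 probes in the lines labelled NFAT1-shRNA and NT-shRNA, with bars of 1 deposited error and dotted lines at the lowest detected intensity of each line (78.3 in NFAT1-shRNA cells and 60.4 in NT-shRNA cells). The probes of NFKB1, RELA, NFKBIA, TNFAIP3 and IKBKB lie right of both dotted lines, and the 7 other probes do not reach detection in either line.

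Sequence just upstream of the start sites is shown for the 6 members in which it holds the kB consensus, the 10-letter pattern that NF-kB dimers recognise, since NF-kB binding at kB sites is how the feedback arm of the pathway is known to work. The letters come from RefSeq promoters of GRCh38.p14, each running from 250 bases before to 50 bases after an annotated start, and both strands were searched. Entries were held for 7 members, with 11 promoters in all, and 6 of the 7 genes had at least 1 match. Among all genes with an entry the share was 13.3%. Of the 11 promoters 7 held a match, against 11.3% of all promoters. Several members are known NF-kB targets, so these shares are a description. The pattern was GGGRNNYYCC, with R for A or G, Y for C or T and N for any letter. Runs that depart from it in any letter were not counted. A match is a run of letters and not a measured binding site. The NFKBIA stretch is chr14:35404801-35404850 on the minus strand, ahead of the only listed start of the gene (chromosome 14, 35401513 to 35404749). The TNFAIP3 stretch is chr6:137867172-137867233 on the plus strand, ahead of a start inside the annotated gene (137866349 to 137883312). The BIRC3 stretch is chr11:102317265-102317314 on the plus strand, where the gene runs from 102317484 to 102339403. The NFKB1 stretch is chr4:102501290-102501339 on the plus strand, ahead of the first of its 2 listed starts (gene 102501359 to 102617302). The NFKB2 stretch is chr10:102394451-102394529 on the plus strand, ahead of the second of its 3 listed starts (gene 102394110 to 102402529). The REL stretch is chr2:60881507-60881557 on the plus strand (gene 60881574 to 60931612). Each is written 5′ to 3′ on the gene's own strand, with letters of kB matches in capitals.
NFKBIA: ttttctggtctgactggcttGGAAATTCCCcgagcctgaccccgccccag
TNFAIP3: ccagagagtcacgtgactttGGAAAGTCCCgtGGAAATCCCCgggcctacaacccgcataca
BIRC3: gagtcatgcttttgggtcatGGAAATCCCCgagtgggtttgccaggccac
NFKB1: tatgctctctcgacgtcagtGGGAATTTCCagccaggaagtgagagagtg
NFKB2: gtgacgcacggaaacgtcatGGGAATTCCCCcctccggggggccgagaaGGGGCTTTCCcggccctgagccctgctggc
REL: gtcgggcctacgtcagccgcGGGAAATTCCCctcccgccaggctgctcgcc

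The matches of NFKBIA, TNFAIP3 and BIRC3 lay on the strand opposite to the gene. TNFAIP3 had 2 matches, from -67 to -58 and from -55 to -46 relative to its start. BIRC3 had a further match from -135 to -126, downstream of the one shown. In REL and in the first run of capitals of NFKB2 the matches on both strands overlapped. The third NFKB2 start had 2 matched stretches of its own, and neither RELA promoter held these letters. The 6 genes with a match included 3 that the array detected (NFKBIA, TNFAIP3 and NFKB1) and 3 that it did not (NFKB2, REL and BIRC3).

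**Figure D2:**
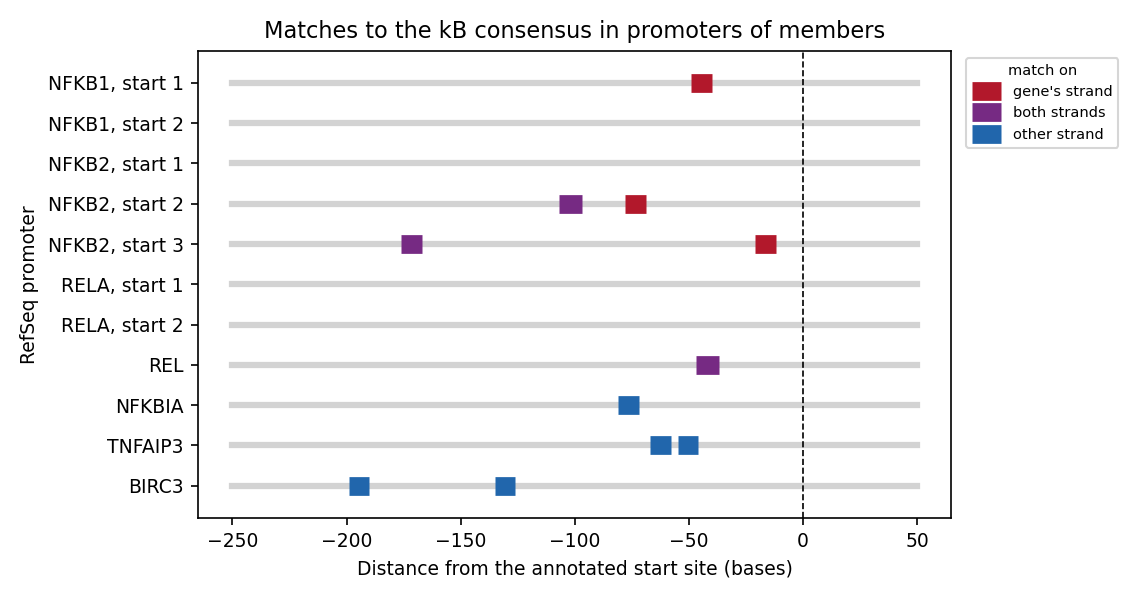
Position of matches to the kB consensus in the 11 RefSeq promoters of 7 members, as distance in bases from the annotated start site (dashed line), coloured by the strand of the match. NFKB1, REL, NFKBIA and TNFAIP3 each have their matches within 100 bases before a start, whereas both RELA promoters have none.

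RELA encodes p65, the activating subunit of the most common NF-kB dimer. Its probe (Entrez gene 5970; chromosome 11, 65653601 to 65663857) read 783.5 ± 83.7 in the line labelled NFAT1-shRNA and 695.4 ± 54.8 in the line labelled NT-shRNA. The ranges of 1 error around these intensities overlapped. The authors' deposited table put the log2 ratio at -0.16 (95% interval -0.53 to 0.22, built on the deposited errors; Benjamini-Hochberg adjusted p 0.781). The sign was opposite for the plain quotient of the intensities, 0.17 on the log2 scale, against the median shift of 0.30.

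NFKB1, the source of p50 and the usual partner of p65 (Entrez gene 4790), read 263.7 ± 16.3 in NFAT1-shRNA cells and 219.2 ± 20.3 in NT-shRNA cells. Its ranges of 1 error did not overlap, which was the case for 60.2% of all genes detected in both lines. For NFKB1 the authors' deposited table listed a ratio of -0.10 on the log2 scale (interval -0.42 to 0.21, adjusted p 0.887), while the plain quotient was 0.27 on the log2 scale.

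The subunits of the alternative pathway and REL were not detected. NFKB2, the source of p52, read 28.6 ± 13.3 in NFAT1-shRNA cells and 38.0 ± 11.6 in NT-shRNA cells on its brighter probe. On the other NFKB2 probe NFAT1-shRNA cells had 15.6 ± 4.83 and NT-shRNA cells 5.90 ± 5.53, the opposite order, and on both probes the ranges overlapped (Entrez gene 4791). RELB, the partner of p52 (Entrez gene 5971; chromosome 19, 45001464 to 45038192), read 15.6 ± 6.35 in NFAT1-shRNA cells against 16.8 ± 7.44 in NT-shRNA cells on its brighter probe. The other RELB probe gave 12.0 ± 4.01 in NFAT1-shRNA cells against 6.30 ± 3.86 in NT-shRNA cells, again with overlapping ranges. The detection p-values of all 4 of these probes were far above the threshold, so no fold is given for NFKB2 or RELB, although the authors' deposited table lists -0.10 (log2) for the brighter NFKB2 probe, with an interval running -1.67 to 1.48.

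REL, which encodes the subunit c-Rel best known from lymphocytes, was brighter in the line labelled NFAT1-shRNA but below detection. Its probe (Entrez gene 5966) read 64.9 ± 8.18 there and 27.7 ± 8.92 in NT-shRNA cells, and the ranges did not overlap. The detection p-value was 0.214 in NFAT1-shRNA cells and 0.968 in NT-shRNA cells. The authors' deposited table listed 0.48 as its log2 ratio (interval -0.49 to 1.46, adjusted p 0.372). That ratio departs from the plain quotient of 1.23 on the log2 scale by -0.75, where the median offset was -0.33 over genes detected in both lines.

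Of the inhibitors, NFKBIA was detected and NFKBIE was not. NFKBIA encodes IkB-alpha, the rapidly resynthesised inhibitor of the p50 and p65 dimer. It read 2337 ± 157 in NFAT1-shRNA cells and 2376 ± 282 in NT-shRNA cells (Entrez gene 4792). These values lay well within each other's error. After centring, the authors' deposited table placed NFKBIA at a log2 ratio of -0.25 (interval -0.64 to 0.13, adjusted p 0.448). NFKBIE, which encodes IkB-epsilon (Entrez gene 4794; chromosome 6, 44258166 to 44265551), read 47.0 ± 8.96 in NFAT1-shRNA cells and 20.8 ± 5.37 in NT-shRNA cells. It was detected in neither line and had no ratio. REL and NFKBIE were the 2 undetected members whose ranges of 1 error did not overlap, which was so for 9.41% of all genes detected in neither line.

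TNFAIP3 encodes A20, a ubiquitin-editing enzyme that ends signalling from the tumour necrosis factor and interleukin-1 receptors. It had the largest absolute log2 ratio of the 5 detected members. Its probe (Entrez gene 7128) read 150.7 ± 18.5 in the line labelled NFAT1-shRNA and 163.4 ± 11.4 in the line labelled NT-shRNA, and the ranges overlapped. The authors' deposited table gave TNFAIP3 a log2 ratio of -0.47 (interval -0.87 to -0.07). The unadjusted p of the authors' deposited table was 0.0477, which became 0.254 after Benjamini-Hochberg adjustment over all genes. The plain quotient was -0.12 on the log2 scale, so most of the distance from 0 comes from the removal of the median shift.

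BIRC3 encodes cIAP2, a ubiquitin ligase of the receptor complexes. It read 6.95 ± 4.87 in NFAT1-shRNA cells and 9.16 ± 4.79 in NT-shRNA cells (Entrez gene 330), below detection and with no ratio. Its relative BIRC2, which encodes cIAP1 and was taken from the list of adapters after its values were seen, was detected and read 1155 in NFAT1-shRNA cells against 987 in NT-shRNA cells. For BIRC2 the centred log2 ratio of the authors' deposited table was -0.08 (adjusted p 0.871). IKBKB (Entrez gene 3551, chromosome 8), the catalytic subunit that acts on IkB-alpha, read 1570 ± 95.7 in NFAT1-shRNA cells and 1219 ± 95.7 in NT-shRNA cells. The ranges did not overlap, but the authors' deposited table listed 0.08 as the log2 ratio (interval -0.20 to 0.36, adjusted p 0.830). With no centring its log2 quotient was 0.37 and passed at an adjusted p of 0.0465 (from the deposited errors), on a scale on which 23.9% of all genes passed.

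Set side by side, the 5 detected members had a median log2 ratio of -0.16, against -0.01 over all genes detected in both lines. In size the median log2 ratio was 0.16 for these members and 0.21 for all such genes. Of the 5 ratios 4 were negative in the authors' deposited table, whereas 2 of the 5 were negative as plain quotients. All 5 intervals lay within 2-fold in either direction, as did 89.8% of those of all genes detected in both lines. Relative errors of the detected members ran from 6.10% to 12.3% of the intensity. Calls rested on the adjusted p and not on these intervals. TNFAIP3 was not called although its interval (-0.87 to -0.07) held only negative values. Changes of that size or smaller could thus be missed, and a p that misses the threshold does not show that the lines were alike.

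**Figure D3:**
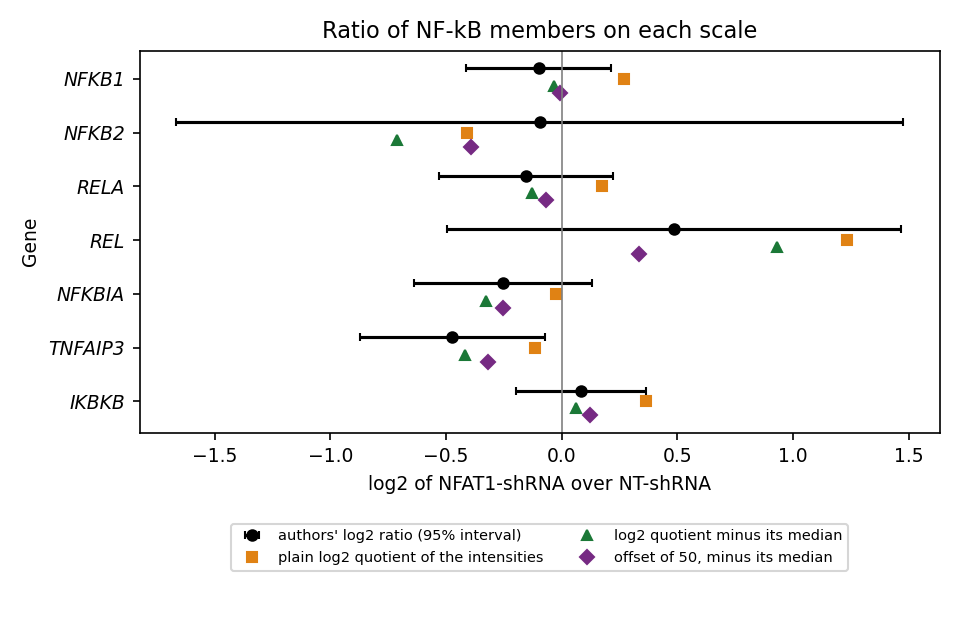
log2 of NFAT1-shRNA over NT-shRNA for the 7 members with a ratio, as the authors' ratio with its 95% interval from the deposited errors (black) and on 3 other scales. The plain quotient of NFKB1 and RELA lies right of 0 and their authors' ratio left of it, and the intervals of NFKB2 and REL, detected in neither line, are the widest.

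The rest of the pathway was read from 8 lists with 100 genes, all of them on the array. The authors' deposited table held a ratio for 71 of them. At an adjusted p under 0.05 the line labelled NFAT1-shRNA had 5 of the 71 higher and 5 lower, while 61 did not pass, and the other 29 genes had no ratio. The background was 3.35% of all genes higher and 4.19% lower. The median log2 ratio of these genes was -0.02, equal to that of all genes to 2 decimals. Some of the genes that passed, such as CXCL8 and IL1A, were known to differ when the lists were drawn up, so the count is a description.

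Receptors and ligands at the head of the pathway held 4 of the 10 calls. These were 2 among the 9 receptors with a ratio and 2 among the 3 ligands with a ratio, where 7.55% of all genes passed. The calls of IL1R1 and IL1B were lost under other settings. TNFRSF1A, the main receptor for tumour necrosis factor, read 298.2 ± 25.0 in NFAT1-shRNA cells and 106.9 ± 12.1 in NT-shRNA cells. The ranges were far apart, and the authors' deposited table listed 1.13 as its log2 ratio (2.19-fold higher; interval 0.74 to 1.53, adjusted p 1.26e-08). The other TNFRSF1A probe read below 0 in both lines, so the value rests on 1 probe. IL1R1, the signalling receptor for interleukin-1, read 462.3 in NFAT1-shRNA cells against 485.3 in NT-shRNA cells. IL1R1 stood at -0.41 by the log2 ratio of the authors' deposited table (adjusted p 0.0383), but the call was lost on each of the other scales, with a plain log2 quotient of -0.07, a quotient minus its median of -0.37 (adjusted p 0.0522) and -0.29 with an offset of 50. Of 14 receptors, 9 had a ratio, 1 rose, 1 fell and 7 did not pass. The ratio was positive for 6 of the 9 and negative for 3. Among those that did not pass was IL1RAP, also a receptor for interleukin-1, named after its values were seen. It read 246.3 ± 17.7 in NFAT1-shRNA cells and 95.6 ± 21.4, not detected, in NT-shRNA cells. The ranges did not overlap, and the adjusted p was 0.0595 (from the p-value in the authors' deposited table).

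Of the 9 ligands, the interleukin-1 genes were the ones that rose, and 6 ligands had no ratio. IL1A read 321.4 ± 32.9 in NFAT1-shRNA cells against 101.3 ± 11.5 in NT-shRNA cells, and the authors' deposited table listed 1.30 as its log2 ratio. IL1B read 100.6 ± 7.58 in NFAT1-shRNA cells against 26.6 ± 12.8, not detected, in NT-shRNA cells. Set against the lowest detected signal of NT-shRNA cells, IL1B was higher in NFAT1-shRNA cells by at least 1.35-fold (adjusted p 0.0181, from the p-value in the authors' deposited table). With the deposited errors in place of that p-value the IL1B call was lost (adjusted p 0.570). TNF, named after its values were seen, was detected in neither line, at 31.9 in NFAT1-shRNA cells and 18.9 in NT-shRNA cells.

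Among 14 genes of the IkB kinase complex and of the kinases above it with their binding partners, 12 had a ratio, and RIPK2 rose while 11 did not pass. The share of all genes with a ratio that passed in either direction was 7.55%. RIPK2, a kinase that links intracellular sensors of bacterial peptides to NF-kB, read 2537 ± 139 in NFAT1-shRNA cells and 1374 ± 139 in NT-shRNA cells. For RIPK2 the authors' deposited table listed 0.63 on the log2 scale (1.54-fold higher; interval 0.30 to 0.95, adjusted p 0.00166). The partners of IKBKB in the kinase complex, named after their values were seen, did not pass. The authors' deposited table listed log2 ratios of -0.10 for CHUK (the other catalytic subunit) and 0.25 for IKBKG (the scaffold NEMO).

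Known target genes outside the feedback loop gave calls in both directions, with 1 higher, 4 lower and 8 not past the threshold among 13 with a ratio. The list held 24 genes, and the other 11, with IL6, VCAM1 and PTGS2 among them, had no ratio. Over all genes with a ratio 3.35% were called higher and 4.19% lower. Of the 13 ratios 11 were negative and 2 positive, where 52% of all genes had a negative ratio. The median log2 ratio of the 13 was -0.20, against -0.02 over all genes. As plain log2 quotients the median of the 13 was 0.05, against 0.30 over all genes with a ratio, so its sign depends on the centring. The list was drawn up with earlier results of these data known, and CXCL8 was known to differ, so these counts and medians are a description. The stress-inducible survival gene IER3 read 17818 ± 956 in NFAT1-shRNA cells and 22169 ± 1425 in NT-shRNA cells. Its ranges did not overlap, and the authors' deposited table listed -0.45 as the log2 ratio (interval -0.68 to -0.21, adjusted p 0.00204). GADD45B, a stress sensor that restrains JNK signalling, read 536.2 in NFAT1-shRNA cells against 568.5 in NT-shRNA cells, with -0.42 as the log2 ratio of the authors' deposited table (adjusted p 0.0350) and a plain quotient of -0.08 that did not pass. The chemokine CCL20 read 288.9 ± 24.0 in NFAT1-shRNA cells and 414.0 ± 25.8 in NT-shRNA cells. CXCL8 and CCL20 both fell, and the authors' deposited table listed them at -1.26 and -0.88 (log2).

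LIF, a cytokine of the interleukin-6 family, was the target gene that rose. It read 378.4 ± 25.5 in NFAT1-shRNA cells and 177.8 ± 14.9 in NT-shRNA cells, and the authors' deposited table listed 0.73 as the log2 ratio (adjusted p 3.60e-05). Other widely used NF-kB targets did not pass, and the ones given here were picked with their values known. The authors' deposited table listed log2 ratios of -0.02 for ICAM1, an adhesion molecule, and -0.20 for SOD2, the mitochondrial superoxide dismutase. Further below 0 were the chemokines CXCL1, at -0.38 (adjusted p 0.242), and CCL5, at -0.36 (adjusted p 0.557). The chemokine CCL2 read 21.3 in NFAT1-shRNA cells and 67.2 in NT-shRNA cells. CCL2 was detected in NT-shRNA cells only and had no ratio and so no p. The lowest detected signal of NFAT1-shRNA cells, 78.3, lies above the 67.2 of NT-shRNA cells. A bound of 1.06-fold lower in NFAT1-shRNA cells arises only once the median shift is removed. It leaves out the error of the NT-shRNA value, 10.9% of the intensity, so CCL2 is not assigned a fold.

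**Figure D4:**
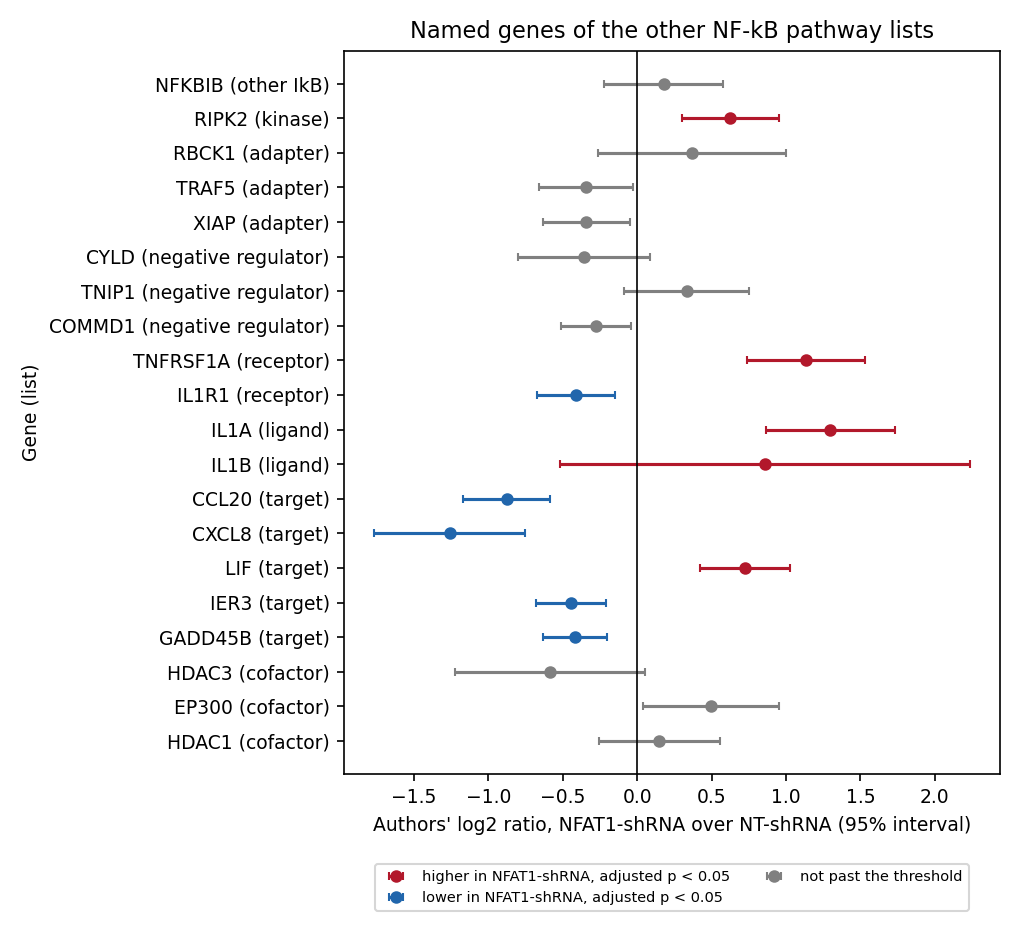
Authors' log2 ratio of NFAT1-shRNA over NT-shRNA, with 95% intervals from the deposited errors, for the named genes of the 8 other pathway lists except NFKBIZ, whose interval is too wide to draw. The 5 genes higher (TNFRSF1A, IL1A, IL1B, LIF and RIPK2) and the 5 lower (CXCL8, CCL20, IER3, GADD45B and IL1R1) are coloured; IL1B was detected in NFAT1-shRNA cells only, and the falls of IL1R1 and GADD45B were not past the threshold as plain quotients.

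In the other 4 lists no gene passed over all genes. Among other IkB family genes, NFKBIB (IkB-beta) stood at 0.18 and 0.15 on 2 probes by the log2 ratios of the authors' deposited table. NFKBIZ (IkB-zeta) read 127.7 in NFAT1-shRNA cells, with an error of 425 that is larger than the signal, against 97.3 in NT-shRNA cells. Of 13 adapters and ubiquitin ligases with a ratio, the authors' deposited table listed RBCK1 at 0.37, TRAF5 at -0.34 and XIAP at -0.34 (log2). RBCK1 was detected in NFAT1-shRNA cells only. The other TRAF5 probe, detected in neither line, had the opposite sign, with a log2 ratio of 0.06.

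Of 12 deubiquitinases and other negative regulators with a ratio, CYLD had the largest shift below 0 of those named. CYLD, a deubiquitinase that acts beside A20, was detected on 2 probes that differed in size. The brighter read 192.8 in NFAT1-shRNA cells against 187.5 in NT-shRNA cells, and the authors' deposited table listed -0.36 as its log2 ratio (adjusted p 0.473). The other probe read 125.6 ± 14.1 in NFAT1-shRNA cells against 177.3 ± 18.3 in NT-shRNA cells. There the authors' deposited table listed -0.84 (log2), and the Benjamini-Hochberg adjusted p over all probes was 0.0208. The authors' deposited table listed log2 ratios of 0.33 for TNIP1, a partner of A20, and -0.28 for COMMD1, which promotes the turnover of RELA. Of 7 nuclear cofactors with a ratio, none passed, and the authors' deposited table listed HDAC3 at -0.59, the acetyltransferase EP300 at 0.50 and HDAC1 at 0.15 (log2).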

How the data were processed

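Total RNA of both A375SM derivatives was amplified and coupled to Cy5, per the labels' protocols. The extraction protocol names a different platform (Illumina) than the dye and probe names would need, so no array maker is stated. Per the file headers, the authors' table holds detection p-values, normalized intensities on a linear scale, their errors, a log2 ratio and its p-value. The sources used here do not say how values were normalized, what the error is or how replicates were combined. Intensities of the series matrix differed from these by at most 5e-07.

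A probe was used where it names 1 gene. Entrez numbers were matched to RefSeq symbols of GRCh38.p14 for 25400 of 25650 such probes. The brightest probe by mean intensity stood for each gene, and 9516 genes had a ratio. The authors' p-values were adjusted by Benjamini-Hochberg over these genes with a threshold of 0.05. Intervals use the propagated deposited errors as normal standard errors. Bounds ("at least") set the bright signal against the higher of the dim one and the lowest detected signal, with the median shift removed. The adjustment and the error propagation were tested on simulated data, with planted changes in bright genes of low error. That simulation took p-values from the deposited errors, so it did not test calls made on the authors' p-values. Members and lists were chosen with earlier results of these data known. The named genes were, beside the members, NFATC2 and CXCL8, every called gene of a pathway list and otherwise up to 3 detected genes of largest absolute ratio. Python 3.11.15, pandas 2.3.3 and scipy 1.17.1 were used.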

Additional observations from a re-analysis of the deposited data

How the results depend on the processing

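No paired analysis was possible because each line has 1 combined value per probe, and for the same reason leaving out a replicate in turn was not run. Of 7 alternatives, 6 kept the member count at 0 and the pathway count within 1.5 times of 10. The plain log2 quotient, which leaves in the shift between the lines, gave 1 member (IKBKB, 0.37), 16 pathway genes and 2278 genes in all, against 718. On it the sign turned for NFKB1 (0.27), RELA (0.17), NFKBIZ (0.39), TRAF5 (0.0054), CYLD (0.040) and COMMD1 (0.012). NFKBIZ was also positive with the quotient minus its median (0.089) and with an offset of 50 (0.040). NFATC2 was -0.055 with the mean of its probes, and CYLD so taken passed (-0.60, adjusted p 0.00444). The IL1R1 call was lost as a plain quotient (-0.07), a centred quotient (-0.37, adjusted p 0.0522) and with an offset of 50 (-0.29). IL1B was lost as a centred quotient (adjusted p 0.136) and GADD45B as a plain one (-0.08). Signal over background limits NFKB2, RELB, REL, NFKBIE and BIRC3.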

Other observations

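Matches to the kB consensus were counted in RefSeq promoters, as a description with no test. Of the 9516 genes with a ratio 7732 had a promoter entry, and 17.1% of these had a match. Of 258 genes called higher in the line labelled NFAT1-shRNA 22.1% had a match, of 317 called lower 15.8%, and of 7157 not called 16.9%. The pathway lists were counted over every gene with an entry, with or without a ratio, and 13.3% of all genes with an entry had a match. A match was found for all 4 other IkB family genes, 10 of 19 target genes, 4 of 8 ligands, 3 of 7 nuclear cofactors and 3 of 12 deubiquitinases and other negative regulators. It was found for 2 of 13 genes of the IkB kinase complex and upstream kinases, 1 of 11 adapters and ubiquitin ligases and 0 of 9 receptors. Of the pathway genes that fell, CCL20 and GADD45B had a match. CXCL8 and IL1R1 had no run of letters in this window that meets the full pattern. Of those that rose, TNFRSF1A, IL1A and IL1B had no match. Runs that depart from the pattern were not counted, so a missing match does not show that a promoter lacks a kB site. IER3, which fell, and RIPK2 and LIF, which rose, had no entry.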
